A study of Mus musculus with 12 samples.

Results

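Transcripts of 9 genes that start, restrain or dissolve blood clots were followed in mouse lung: F3, F10, Vwf, Thbd, Procr, Tfpi, Plat, Plau and Plaur. They were taken by symbol from a table of 38349 genes, and each symbol had 1 row there. Whole lungs of wild-type mice gave 12 RNA sequencing libraries in 4 groups of 3. Control lungs carried no injury by label, and ALI (acute lung injury) lungs were injured with hypoxia and LPS (lipopolysaccharide, a bacterial cell wall component). MSC and tpMSC lungs are labelled as injured in the same way and then treated. The labels used here spell out neither treatment name and give no strain, age, dose, route or time. Whether the 3 libraries of a group came from different animals is not stated, and the error behind each p-value may therefore be technical.

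Clotting in a vessel begins when tissue factor, the product of F3, meets factor VII, and the pair activates factor X, the product of F10, which with its cofactor makes thrombin. The endothelium holds this back with tissue factor pathway inhibitor (Tfpi), with thrombomodulin (Thbd), which turns thrombin into an activator of protein C, and with the endothelial protein C receptor (Procr), which presents protein C to it. Clots are dissolved by plasmin, made from plasminogen by the tissue activator (Plat) and by urokinase (Plau), whose receptor (Plaur) sits on leukocytes and epithelium. Von Willebrand factor (Vwf), stored in endothelium and platelets, tethers platelets to an injured wall and carries factor VIII. Injured lungs are known for a shift toward clotting and fibrin deposition in the air spaces.

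In the GRCm38 annotation F3 lies on chromosome 3 (121723537 to 121735048), F10 on chromosome 8 (13037308 to 13056676) and Vwf on chromosome 6 (125546774 to 125686679). Thbd (148404466 to 148408188, a gene of 1 exon), Procr (155751117 to 155755471) and Tfpi (84432855 to 84476775) are on chromosome 2. Plat is on chromosome 8 (22757727 to 22782844), Plau on chromosome 14 (20836660 to 20843385) and Plaur on chromosome 7 (24462484 to 24475968). In that annotation no other gene overlaps any of the 9. The deposited positions differ from it for all 9, so overlap in the annotation behind the counts was not checked.

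RefSeq promoter windows of 300 bases (GRCm38.p6, 250 before and 50 after the annotated start) matched 5 of the 9 genes by symbol: F3, F10, Procr, Plaur and Tfpi, the last with 2 windows. Thbd, Plat, Plau and Vwf had no window. The bases before the start are shown for F3 and Plaur, which rose in ALI, for F10, the largest rise of the 9, and for Procr, which did not pass the test. Capitals mark matches to any of 7 motifs searched on both strands. For Procr the RefSeq start lies after the gene start given above (155751117). The last bases shown for it, with the NF-kB match at -29 to -20, thus fall inside the gene as placed there.
F3 (chr3:121723287-121723536, + strand): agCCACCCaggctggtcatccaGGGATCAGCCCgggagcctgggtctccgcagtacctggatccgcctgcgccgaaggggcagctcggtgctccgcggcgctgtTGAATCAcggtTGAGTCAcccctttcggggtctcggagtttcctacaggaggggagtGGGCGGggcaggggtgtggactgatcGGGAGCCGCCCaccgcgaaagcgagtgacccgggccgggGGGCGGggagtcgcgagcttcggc
Plaur (chr7:24462233-24462482, + strand): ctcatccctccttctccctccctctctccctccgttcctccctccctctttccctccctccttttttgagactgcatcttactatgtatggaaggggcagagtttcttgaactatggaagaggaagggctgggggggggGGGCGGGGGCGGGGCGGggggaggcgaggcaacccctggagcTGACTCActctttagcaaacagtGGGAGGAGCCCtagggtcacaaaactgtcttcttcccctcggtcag
F10 (chr8:13037058-13037307, + strand): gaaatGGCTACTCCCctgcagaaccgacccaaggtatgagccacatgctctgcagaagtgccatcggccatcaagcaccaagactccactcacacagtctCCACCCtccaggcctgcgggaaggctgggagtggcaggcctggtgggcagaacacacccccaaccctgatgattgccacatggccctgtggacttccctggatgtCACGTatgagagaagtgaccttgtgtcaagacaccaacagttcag
Procr (chr2:155750967-155751216, + strand): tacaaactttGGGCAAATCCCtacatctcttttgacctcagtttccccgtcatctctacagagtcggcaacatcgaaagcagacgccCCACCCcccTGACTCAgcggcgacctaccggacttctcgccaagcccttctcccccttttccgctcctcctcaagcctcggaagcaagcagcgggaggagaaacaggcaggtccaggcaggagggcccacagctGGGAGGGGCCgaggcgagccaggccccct

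The AP-1 letters TGANTCA stood at bases -146 to -140 and -135 to -129 from the start of F3, at -69 to -63 in Plaur and at -154 to -148 in Procr. Of 32851 mouse windows, 7.81% hold them. The loose NF-kB pattern, GGG and CC with 5 bases of any kind between them, matched in F3 (4 matches), Plaur (3), Procr (3), F10 (1) and 1 of the 2 windows of Tfpi (3), and it occurs in 50.8% of all windows. Matches on opposite strands that overlap are counted separately, so that the 4 in F3 cover 2 places. SP1 letters (GGGCGG, 35.7% of all windows) matched in F3, Plaur and both windows of Tfpi. They overlap an NF-kB match in F3 and the single EGR1 match (GCGNGGGCG, 5.55%) in Plaur. KLF letters (CCACCC, 31.5%) matched in F3, F10 and Procr. The hypoxia letters ACGTG (19.6%) matched in F10 and in 1 window of Tfpi, and the TATA letters TATAAA (13.6%) in F3 and that same window of Tfpi. AP-1 and NF-kB letters were thus present both before genes called higher in ALI and before Procr, which was not called. A match describes letters only. Some matches, such as the TATA letters of F3, lie after the start and are not in the bases shown.

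Libraries held 53083002 to 70209229 counts. Libraries of the MSC group and tpMSC replicate 3 stood farther from their groups than others did: a chi-square per degree of freedom between libraries of 1 group was 20.8 to 54.6 within Control and ALI, 74.9 to 137 within MSC, and 25.9 for tpMSC replicates 1 and 2 against 85.8 and 89.5 for pairs with replicate 3. The lung markers Sftpc (surfactant protein C) and Ager (alveolar type 1 cells) were at 11154 ± 461 and 947 ± 27.5 FPKM in Control (SD, n = 3), as the tissue label says. Levels are the authors' FPKM, fragments per length of transcript scaled to the size of the library. Changes are log2 fold changes with SE from edgeR's quasi-likelihood test on the counts over 22915 genes, and a gene was called at a Benjamini-Hochberg adjusted p under 0.05. In whole lung, fewer cells of a type and less RNA per cell cannot be told apart.

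Injury raised 5 of the 9 transcripts and lowered 2. F10, F3, Plaur, Plau and Plat rose, Thbd and Vwf fell, and Procr and Tfpi did not pass the test. That makes 7 of 9 called where 39.8% of all genes tested were called, and groups did not overlap for those same 7 genes, against 55.6% of all genes. The median size of change, whatever its sign, was 0.71 for the 9 and 0.44 for all genes on the log2 scale. All 9 passed the filter on low counts.

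**Figure D1:**
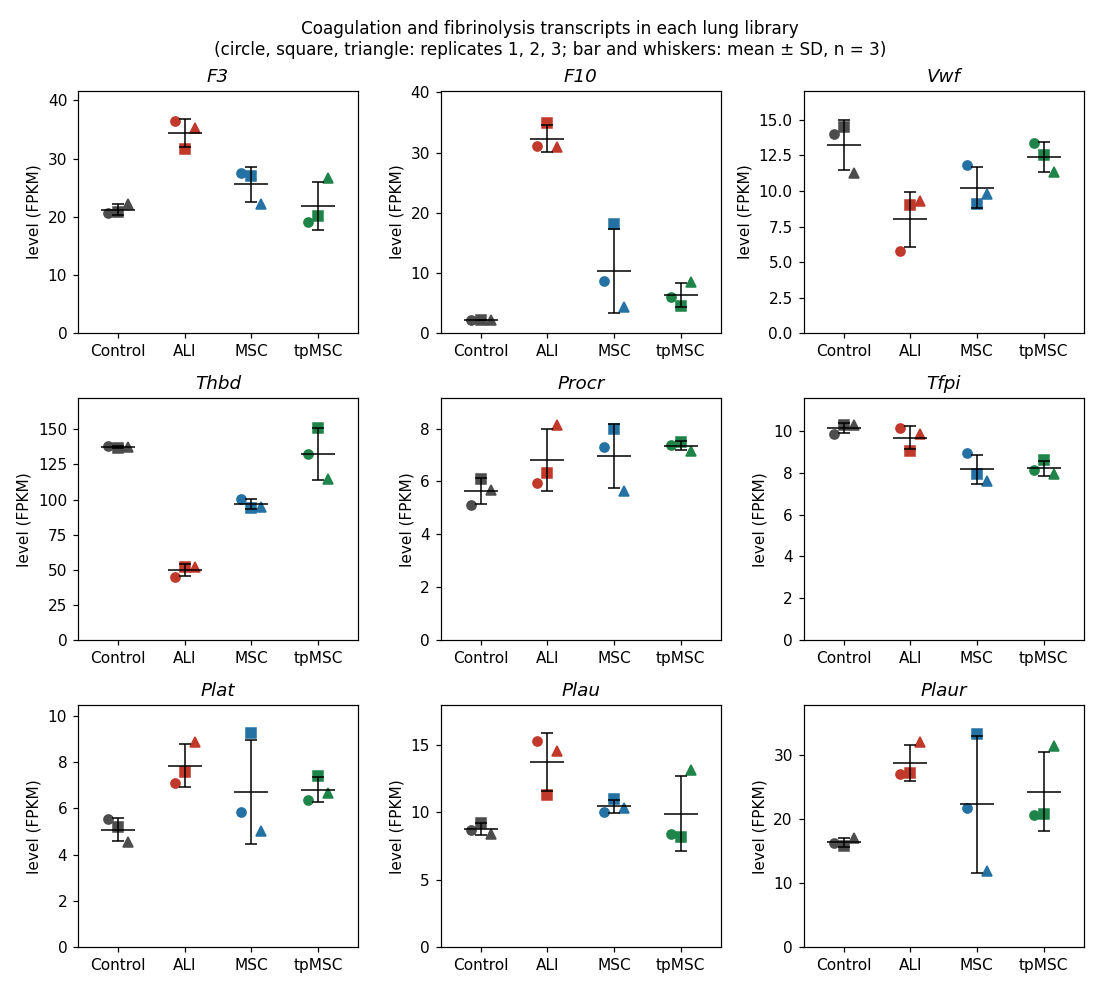
Level of each of the 9 transcripts in FPKM (vertical axes from 0) in each library, by group; bars and whiskers give mean ± SD of 3 libraries. F10 is near 2 FPKM in Control and above 30 in ALI, Thbd falls from about 138 to about 50 FPKM, and the MSC libraries spread widely for F10, Plat and Plaur.

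F3 encodes tissue factor, the membrane protein that starts the clotting cascade. Its levels were 20.7, 20.8 and 22.3 FPKM in Control and 36.4, 31.7 and 35.2 in ALI. They were 27.4, 27.1 and 22.2 FPKM in MSC and 19.0, 20.1 and 26.6 in tpMSC. Every ALI library stood above every other library, and tpMSC replicates 1 and 2 lay below all Control libraries while replicate 3 lay above them. F3 rose 1.69-fold in ALI (log2 fold change 0.76 ± 0.13 SE, edgeR adjusted p = 0.000562). It fell by 0.48 ± 0.12 (log2, SE) in MSC against ALI (edgeR adjusted p = 0.0325) and by 0.67 ± 0.13 in tpMSC against ALI (edgeR adjusted p = 0.00271). The MSC call was lost when ALI replicate 1 or 3, MSC replicate 1 or 3 or Control replicate 2 was left out (highest adjusted p 0.118), without the count filter (0.0644) and with the replicate number as a block (0.052). The order of group means was ALI, MSC, tpMSC, Control, and the neighbours MSC and tpMSC, and tpMSC and Control, did not pass the test of their difference.

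F10 encodes factor X, a protease best known as a liver product of blood plasma, and it showed the largest change of the 9. Control libraries held 2.18, 2.15 and 2.15 FPKM and ALI libraries 31.2, 34.9 and 30.9. MSC libraries held 8.71, 18.1 and 4.41 FPKM and tpMSC libraries 5.94, 4.50 and 8.45. All treated libraries lay between Control and ALI, with the widest spread inside the MSC group. F10 rose 15.6-fold in ALI (log2 fold change 3.96 ± 0.43 SE, edgeR adjusted p = 2.79e-05). Against ALI it fell by 1.69 ± 0.38 in MSC (log2, SE; edgeR adjusted p = 0.0179) and by 2.38 ± 0.39 in tpMSC (edgeR adjusted p = 0.00142). It still stood 4.84-fold above Control in MSC (edgeR adjusted p = 0.00295) and 2.99-fold above it in tpMSC (edgeR adjusted p = 0.02). The call for MSC against ALI was lost without ALI replicate 1 or MSC replicate 1, or with those 2 groups alone (highest adjusted p 0.0826). The call for tpMSC against Control was lost without any 1 of the Control libraries or without tpMSC replicate 3 (highest adjusted p 0.0716). MSC and tpMSC did not pass the test of their difference (log2 -0.70 ± 0.38 SE, edgeR adjusted p = 0.487). MSC replicate 2 moved the F10 values most: without it the log2 change was -2.36 in MSC against ALI, 1.62 in MSC against Control and -0.0264 in tpMSC against MSC.

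Vwf encodes the platelet-tethering protein of endothelial storage granules. It was at 14.0, 14.5 and 11.3 FPKM in Control and 5.80, 8.99 and 9.27 in ALI. In MSC it was at 11.8, 9.12 and 9.77 FPKM and in tpMSC at 13.4, 12.5 and 11.3. ALI libraries were all below Control and below tpMSC, and overlapped with MSC. Vwf fell by 0.66 ± 0.17 in ALI (log2, SE; edgeR adjusted p = 0.00843) and rose by 0.60 ± 0.17 in tpMSC against ALI (edgeR adjusted p = 0.0243). The tpMSC call was lost without ALI replicate 1, tpMSC replicate 1 or tpMSC replicate 2 (highest adjusted p 0.0811). For MSC against ALI the value was 0.30 ± 0.17 (edgeR adjusted p = 0.308), and MSC and tpMSC did not differ by the test (edgeR adjusted p = 0.503).

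Thbd encodes thrombomodulin, the thrombin receptor through which protein C is activated, and it was the highest of the 9 in Control. Control libraries held 138.1, 136.8 and 137.6 FPKM and ALI libraries 44.8, 52.3 and 52.2. MSC libraries held 100.7, 94.2 and 94.9 FPKM and tpMSC libraries 132.3, 151.1 and 114.4. ALI, MSC and tpMSC libraries formed 3 ranges that did not overlap, and the tpMSC range enclosed that of Control. Thbd fell 2.65-fold in ALI (log2 fold change -1.40 ± 0.10 SE, edgeR adjusted p = 2.23e-06). Against ALI it rose by 0.91 ± 0.10 in MSC (log2, SE; edgeR adjusted p = 0.000437) and by 1.39 ± 0.10 in tpMSC (edgeR adjusted p = 1.50e-05). These 3 calls held in all 17 alternatives. MSC fell short of Control (log2 -0.50 ± 0.10 SE, edgeR adjusted p = 0.00532), and tpMSC differed from Control by -0.02 ± 0.10 (edgeR adjusted p = 0.934). The difference of tpMSC from MSC was 0.48 ± 0.10 (log2, SE) with an edgeR adjusted p of 0.114. DESeq2 called that difference (adjusted p = 0.00118), and so did edgeR without tpMSC replicate 3 (adjusted p = 0.0137). Over all genes these 2 settings called 671 and 397 for tpMSC against MSC, where edgeR on all libraries called 7.

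Procr, the receptor that hands protein C to the thrombin and thrombomodulin pair, was not called in any comparison. Its levels were 5.12, 6.09 and 5.67 FPKM in Control, 5.95, 6.31 and 8.15 in ALI, 7.29, 7.97 and 5.64 in MSC and 7.39, 7.49 and 7.17 in tpMSC. ALI and MSC libraries overlapped with Control, whereas tpMSC libraries lay above all Control libraries. ALI against Control gave a log2 fold change of 0.33 ± 0.15 SE (edgeR adjusted p = 0.0908) and tpMSC against Control 0.42 ± 0.15 (edgeR adjusted p = 0.0718). The latter was called by DESeq2 (adjusted p = 0.0372), with those 2 groups alone (0.0232) and without MSC replicate 3 (0.0405).

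Tfpi encodes the inhibitor that blocks factor X and the tissue factor complex. Control libraries held 9.86, 10.3 and 10.3 FPKM and ALI libraries 10.1, 9.04 and 9.84. MSC libraries held 8.93, 7.93 and 7.62 FPKM and tpMSC libraries 8.10, 8.59 and 7.91. Every treated library lay below every uninjured and every untreated injured library. ALI differed from Control by -0.01 ± 0.07 (log2, SE; edgeR adjusted p = 0.952). Against ALI Tfpi fell by 0.29 ± 0.07 in MSC (edgeR adjusted p = 0.0233) and by 0.26 ± 0.07 in tpMSC (edgeR adjusted p = 0.0204). Against Control it fell by 0.30 ± 0.07 in MSC (edgeR adjusted p = 0.013) and by 0.27 ± 0.07 in tpMSC (edgeR adjusted p = 0.0257). These falls are small, and each call was lost in 1 or more alternatives, with highest adjusted p of 0.104, 0.0808, 0.0579 and 0.0953 in that order. Among the libraries whose removal ended a call were ALI replicates 1 and 3 and Control replicate 2.

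Plat encodes tissue plasminogen activator, released by endothelium. It was at 5.52, 5.19 and 4.53 FPKM in Control, 7.09, 7.59 and 8.86 in ALI, 5.83, 9.26 and 5.03 in MSC and 6.37, 7.41 and 6.66 in tpMSC. MSC replicate 2 held the highest level of all 12 libraries, while MSC replicates 1 and 3 were below ALI. Plat rose by 0.69 ± 0.19 in ALI (log2, SE; edgeR adjusted p = 0.0123), a call lost without Control replicate 3 (0.0503). MSC against ALI was not called (log2 -0.28 ± 0.19 SE, edgeR adjusted p = 0.409), but became so without MSC replicate 2 (log2 -0.59, adjusted p = 0.0121). tpMSC against ALI was not called either (log2 -0.23 ± 0.19 SE, edgeR adjusted p = 0.425).

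Plau encodes urokinase, the activator that works at cell surfaces. It was at 8.67, 9.22 and 8.39 FPKM in Control, 15.3, 11.3 and 14.6 in ALI, 10.1, 11.0 and 10.3 in MSC and 8.42, 8.18 and 13.1 in tpMSC. Every ALI library stood above Control and MSC, and tpMSC replicate 3 alone of its group reached the ALI range. Plau rose by 0.71 ± 0.17 in ALI (log2, SE; edgeR adjusted p = 0.00585). Against ALI neither MSC (log2 -0.44 ± 0.17 SE, edgeR adjusted p = 0.128) nor tpMSC (-0.49 ± 0.17, edgeR adjusted p = 0.0555) was called. Without tpMSC replicate 3 both were (adjusted p = 0.0202 for MSC, and log2 -0.76 with adjusted p = 0.00111 for tpMSC), and DESeq2 called the tpMSC difference (0.0216).

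Plaur encodes the urokinase receptor. It was at 16.3, 15.7 and 17.1 FPKM in Control and at 27.0, 27.1 and 32.0 in ALI. In MSC it was at 21.7, 33.2 and 11.9 FPKM and in tpMSC at 20.6, 20.7 and 31.4. MSC replicate 2 stood above all ALI libraries and MSC replicate 3 below all Control libraries. Plaur rose by 0.87 ± 0.29 in ALI (log2, SE; edgeR adjusted p = 0.0298), and that call was lost without any 1 of the 6 libraries compared (adjusted p 0.0524 to 0.0881), with log2 values of 0.79 to 0.93. It was not called in MSC (log2 -0.42 ± 0.28 SE, edgeR adjusted p = 0.412) or tpMSC (-0.27 ± 0.28, edgeR adjusted p = 0.551) against ALI. Without MSC replicate 2 the MSC value became -0.83 with an adjusted p of 0.0497.

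Against ALI, 4 of the 9 were called in MSC (Thbd up, and F3, Tfpi and F10 down) where 10.2% of all genes were called. Groups did not overlap for 5 of the 9 there, against 26.9% of all genes. In tpMSC 5 were called (the same 4 in the same directions, and Vwf up) where 23.1% of all genes were called, and 5 did not overlap, against 39.5%. Both comparisons use the ALI libraries, and ALI against Control uses them too. The MSC count ran from 1 without ALI replicate 1 to 6 without MSC replicate 2, and was 2 without ALI replicate 3, MSC replicate 1 or MSC replicate 3. The tpMSC count was 3 without ALI replicate 1 or tpMSC replicate 1. Between tpMSC and MSC edgeR called none of the 9, where 0.0305% of all genes were called, and 1, Thbd, had an unadjusted p under 0.05, against 12.6% of all genes. Thbd was also the 1 gene of the 9 whose groups did not overlap (13.3% of all genes). DESeq2 called it, as it did 671 of the 22915 genes, where edgeR called 7. Against Control, 3 of the 9 were called in MSC (F10 up, Thbd and Tfpi down), where 18.7% of all genes were called, 10.7% up and 8.0% down. In tpMSC 2 were called (F10 up, Tfpi down), where 15.9% of all genes were called, 9.1% up and 6.79% down. Groups did not overlap for 4 of the 9 in MSC and 5 in tpMSC against Control, with 37.9% and 38.7% over all genes. That tpMSC count was 0 without any 1 Control library or without tpMSC replicate 3, 1 without tpMSC replicate 1 and 4 without MSC replicate 3.

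**Figure D2:**
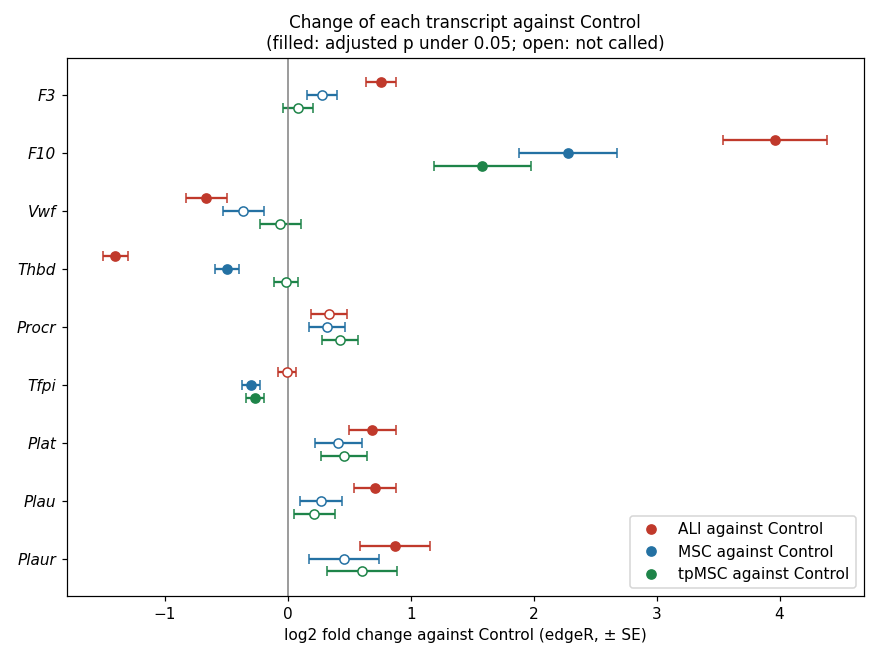
Log2 fold change of each transcript against Control, with SE from edgeR, for ALI, MSC and tpMSC; filled points passed an adjusted p of 0.05. The 3 comparisons share the Control libraries. F10 stays to the right of 0 in all 3 groups, Thbd is at -1.40, -0.50 and -0.02, and Tfpi is at -0.01 in ALI and called lower in MSC and tpMSC.

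Ratios of FPKM inside each library do not depend on scaling between libraries. The log2 ratio of F3 to Thbd, tissue factor to thrombomodulin, was -2.74, -2.72 and -2.63 in Control and -0.30, -0.72 and -0.57 in ALI. It was -1.88, -1.80 and -2.10 in MSC and -2.80, -2.91 and -2.10 in tpMSC. The ratio was thus higher in every ALI library than elsewhere, and the mean moved by 2.16 from Control to ALI. It was lower than in ALI by a mean of 1.39 in MSC (difference -1.39) and by 2.07 in tpMSC (difference -2.07). All 3 differences had p = 0.1 in a two-sided exact permutation test, the smallest p that 3 against 3 libraries allow. With 6 ratios and 6 group pairs none could pass, so the ratios are given as description.

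The log2 ratio of F3 to Tfpi, the initiator to its inhibitor, was 1.07, 1.02 and 1.12 in Control and 1.85, 1.81 and 1.84 in ALI. In MSC it was 1.62, 1.77 and 1.54, and in tpMSC 1.23, 1.23 and 1.75. All treated libraries lay above Control and below ALI, with tpMSC replicate 3 apart from the other tpMSC libraries. Thbd to Procr, the paired receptors of the protein C system, went from 4.61 ± 0.13 in Control to 2.88 ± 0.19 in ALI, and was 3.81 ± 0.25 in MSC and 4.16 ± 0.17 in tpMSC (log2, SD, n = 3). All treated libraries again lay between Control and ALI. Vwf to Thbd was -3.38 ± 0.20 in Control, -2.66 ± 0.25 in ALI, -3.25 ± 0.14 in MSC and -3.41 ± 0.16 in tpMSC, and no ALI library overlapped with Control. The plasminogen activators kept an overlapping ratio: Plau to Plat was 0.79 ± 0.12 in Control, 0.80 ± 0.28 in ALI, 0.69 ± 0.40 in MSC and 0.51 ± 0.43 in tpMSC. Plaur to Plau, the receptor to its ligand, was 0.90 ± 0.13 in Control and 1.07 ± 0.23 in ALI. In MSC it was 1.11, 1.59 and 0.20, and in tpMSC 1.29, 1.34 and 1.26, all above Control.

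**Figure D3:**
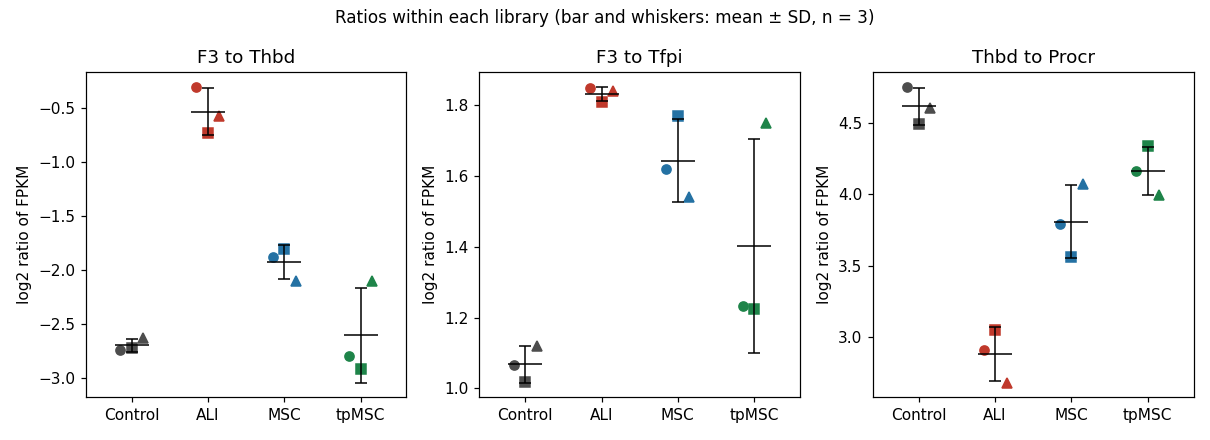
Log2 ratio of FPKM within each library for F3 to Thbd, F3 to Tfpi and Thbd to Procr, by group, with mean ± SD of 3 libraries; axes do not start at 0. ALI libraries have the highest F3 to Thbd and F3 to Tfpi ratios and the lowest Thbd to Procr ratios, and treated libraries lie between ALI and Control except for tpMSC in F3 to Thbd.

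Likeness of pattern was measured as the root mean square difference of log2 CPM over the 12 libraries, each gene centred on its own mean. Among the 9, F3 and Plau were closest (0.13), then Procr and Plat (0.21) and Plat and Plaur (0.25). Over all tested genes of at least 1 FPKM, the closest to F3 were Abcc1 (0.0616) and Rffl (0.0979), and to F10 Trem3 (0.27) and Igsf6 (0.32). Thbd was closest to Myh10 (0.12) and Stmn2 (0.13), Vwf to Rtp3 (0.14) and Gfra2 (0.14), Procr to Rfc3 (0.0912) and Ap2s1 (0.11), and Tfpi to Snapc1 (0.0652) and Vamp4 (0.0765). Plat was closest to Sirpa (0.11) and Pik3r6 (0.12), Plau to Zdhhc5 (0.10) and Mob3a (0.11), and Plaur to Coro2a (0.18) and Itgb2 (0.20). The measure favours steady genes: the SD of log2 CPM over the libraries was 0.16 for Tfpi and 1.55 for F10.

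Cell markers also changed between groups, and their part in the results was not tested. In ALI most endothelial markers fell. Of the 9 transcripts Thbd and Vwf fell there, F10, F3, Plaur, Plau and Plat rose, and Tfpi and Procr were not called. Which cells held each transcript was not measured. Of 12 endothelial markers 11 fell in ALI and none rose; 10 rose in tpMSC and 3 (Tek, Tie1 and Erg) in MSC against ALI. Their summed level was 1052 to 1064 FPKM in Control, 538 to 594 in ALI, 616 to 793 in MSC and 803 to 888 in tpMSC, the same order of group means as for Vwf and Thbd. Against Control, 11 of the 12 were called lower in MSC and 7 in tpMSC. That order of group means was not particular to endothelium: the sums of alveolar type 1, alveolar type 2 and fibroblast markers had it too. In Control Sftpc made up most of the type 2 sum (mean 11154 FPKM, sums of 13273 to 14318). Inmt made up most of the fibroblast sum there (mean 1425 FPKM, sums of 1657 to 1755). The type 2 and fibroblast lists held markers called in either direction in ALI, so their sums do not stand for every marker. In the list of 9 markers of alveolar type 1 cells, ALI lowered 8 and raised Pdpn, with sums of 2207 to 2260 FPKM in Control, 1313 to 1605 in ALI, 1658 to 1915 in MSC and 1815 to 2069 in tpMSC. All 10 neutrophil markers rose in ALI, from sums of 146 to 239.7 FPKM in Control to 3824 to 4316, and were 482 to 1000.1 in MSC and 473 to 622 in tpMSC. Of 7 monocyte markers 6 rose in ALI, with sums of 75.8 to 87.2 FPKM in Control, 527 to 595 in ALI, 210.3 to 303 in MSC and 155 to 263 in tpMSC. Cd14 held most of the ALI sum, at 430 ± 21.8 FPKM against 10.8 ± 1.77 in Control (SD, n = 3). It was at 114 ± 31.7 FPKM in MSC and 66.8 ± 30.9 in tpMSC, so most of the fall of the sum from ALI was Cd14 too. Against ALI only 1 of the 7 monocyte markers was called lower in MSC and 3 in tpMSC. No marker on these lists was at 0 in any group.

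Macrophage markers differed between libraries of 1 group, as F10 and Plaur did, and their part in those values was not tested. The 9 alveolar macrophage markers summed to 246, 719 and 33.4 FPKM in MSC replicates 1, 2 and 3, the same order as F10 (8.71, 18.1 and 4.41) and Plaur (21.7, 33.2 and 11.9). That order was not particular to alveolar macrophages. Monocyte sums (221, 303 and 210 FPKM), platelet and megakaryocyte sums (31.1, 41.0 and 29.5) and smooth muscle and pericyte sums (149, 221 and 130) had it too. Chil3 had the largest mean of the 9 alveolar macrophage markers in MSC and ran from 12.0 to 551.7 FPKM there. In ALI 6 of these 9 were called lower than in Control and none higher. The alveolar macrophage sum in ALI was 45.4 to 57.4 FPKM, below the 256 to 333 of Control, while F10 and Plaur were high. In tpMSC the highest F10 and Plaur were in replicate 3, which had the highest monocyte sum (263 FPKM) and the lowest alveolar macrophage sum (349). Hepatocytes are the usual source of plasma factor X, and their 8 markers summed to 1.69 to 2.05 FPKM in Control, 2.46 to 4.08 in ALI, 2.03 to 2.91 in MSC and 2.91 to 3.58 in tpMSC. The sum was thus higher in every ALI library than in Control, and the sums of tpMSC and ALI overlapped. All of these sums were low, at most 4.08 FPKM. The part of these markers in the F10 result was not tested. Of the 6 markers that could be tested, Serpina1a, a protease inhibitor, rose in ALI from 1.06 ± 0.06 to 2.57 ± 0.55 FPKM (SD, n = 3; edgeR adjusted p = 0.00034), and Alb (albumin) fell from 0.50 ± 0.06 to 0.0867 ± 0.12 (edgeR adjusted p = 0.0421). By group mean, Serpina1a held most of the hepatocyte sum in Control and in ALI. Ttr was at 0 in all groups but tpMSC. Platelet and megakaryocyte markers divided: of 9, 6 fell and 1, Pf4, rose in ALI, with sums of 22.7 to 25.8 FPKM in Control, 41.2 to 45.6 in ALI, 29.5 to 41.0 in MSC and 26.7 to 29.7 in tpMSC. The higher sum in ALI came from Pf4 (7.41 ± 0.53 FPKM in Control, 36.4 ± 1.63 in ALI; SD, n = 3). Every other marker of that list had a lower mean in ALI than in Control.

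**Figure D4:**
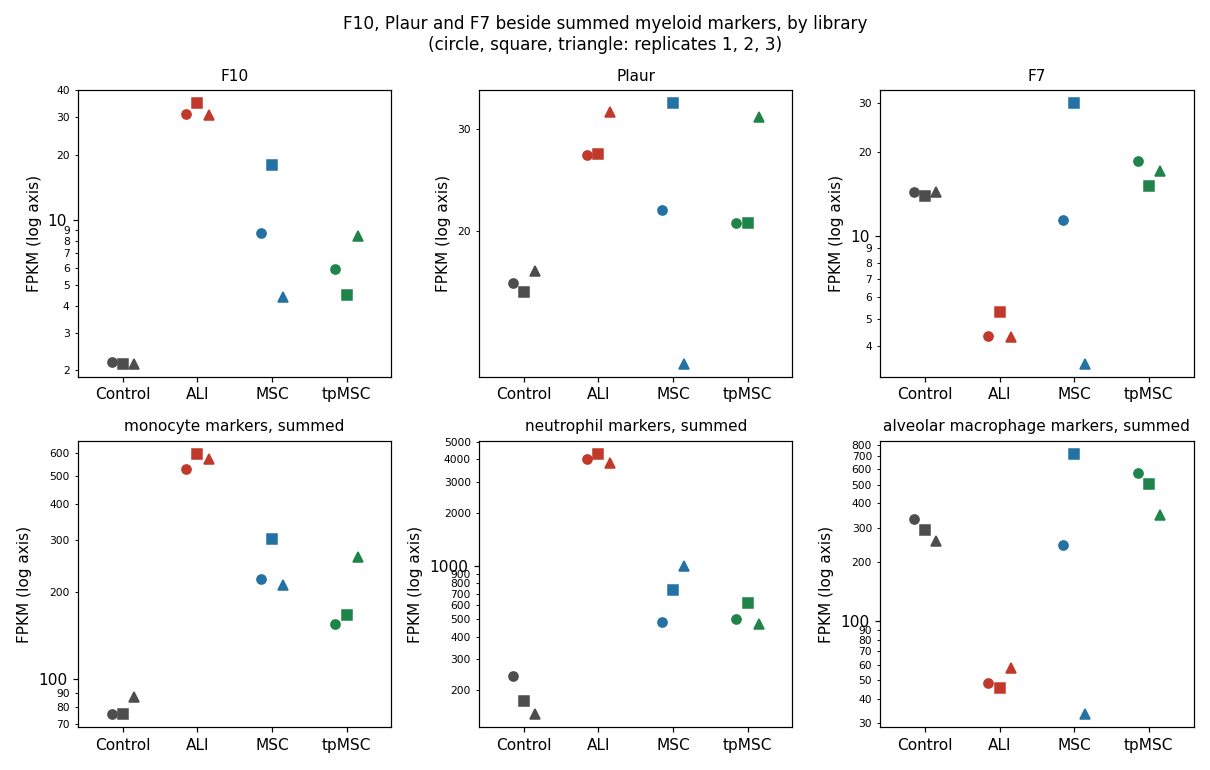
FPKM on log axes of F10, Plaur and F7 and of the summed markers of monocytes, neutrophils and alveolar macrophages, by library and group. F10 and the monocyte sum are highest in ALI, while F7 and the alveolar macrophage sum are low in ALI and in MSC replicate 3 and highest in MSC replicate 2. Cd14 holds most of the monocyte sum in ALI and most of its fall from ALI to MSC and tpMSC. Chil3 holds the largest part of the alveolar macrophage sum in MSC by group mean.

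Of 47 other genes of clotting and clot lysis, 42 passed the count filter. In ALI 14 rose and 6 fell, where 20.2% of all genes rose and 19.6% fell, and their median log2 fold change was 0.21 against -0.02 for all genes. Against ALI, 1 rose and 4 fell in MSC (background 5.03% and 5.21%), and 5 rose and 9 fell in tpMSC (11.6% and 11.5%). The riser in MSC was Gas6, and those that fell included Serpine2, Selp and Mcfd2, a cargo receptor for factor VIII (log2 -0.28, edgeR adjusted p = 0.0141). The risers in tpMSC were Gas6, F7, Pros1 (protein S), S100a10 (a plasminogen receptor subunit) and Vkorc1, which recycles vitamin K. Between tpMSC and MSC edgeR called none.

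Among clotting factors, F13a1, the fibrin-crosslinking subunit made by macrophages and platelets, rose 4.84-fold in ALI, from 1.71 ± 0.17 to 7.95 ± 1.38 FPKM (SD, n = 3; edgeR adjusted p = 7.32e-05). F7, the partner of tissue factor, was the only factor on that list to fall (log2 fold change -1.54 ± 0.52 SE, edgeR adjusted p = 0.0333). Its levels were 14.4, 13.8 and 14.3 FPKM in Control, 4.35, 5.31 and 4.31 in ALI, 11.4, 29.9 and 3.47 in MSC and 18.6, 15.0 and 17.0 in tpMSC. F7 thus went opposite to F10 in ALI, rose in tpMSC against ALI (edgeR adjusted p = 0.0264), and spread most in MSC, where replicate 2 was highest and replicate 3 lowest, as for F10 and the alveolar macrophage sum. The fibrinogen genes Fga and Fgg stayed under 1 FPKM in every library.

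Among inhibitors, Serpine2, a serpin that inhibits thrombin and urokinase, rose 2.53-fold in ALI, from 8.37 ± 0.47 to 20.3 ± 1.15 FPKM, and was at 11.2 ± 0.73 in MSC and 12.6 ± 0.74 in tpMSC, each called against ALI and against Control. Tfpi2, a relative of Tfpi that inhibits plasmin, was at 1.75 ± 0.40 FPKM in Control, 4.18 ± 0.74 in ALI, 2.74 ± 0.51 in MSC and 1.84 ± 0.27 in tpMSC, and fell in tpMSC against ALI (edgeR adjusted p = 0.00226).

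Selp, the P-selectin that is stored with Vwf in endothelial granules and in platelets, rose 35.8-fold in ALI, from 0.61 ± 0.15 to 21.3 ± 6.57 FPKM, while Vwf fell. It was at 2.63 ± 0.15 FPKM in MSC and 2.40 ± 1.91 in tpMSC, called lower than ALI and higher than Control in both. Gas6, a vitamin K-dependent ligand of TAM receptors related to protein S, was at 149 ± 4.52 FPKM in Control, 46.7 ± 2.67 in ALI, 100.2 ± 10.6 in MSC and 108 ± 23.4 in tpMSC. Its fall in ALI (log2 -1.62 ± 0.14 SE, edgeR adjusted p = 6.57e-06) and its rises in MSC (1.05 ± 0.14, edgeR adjusted p = 0.00104) and tpMSC (1.18 ± 0.14, edgeR adjusted p = 0.000177) against ALI were called. Gas6 was called lower than Control in both MSC (log2 -0.57 ± 0.13 SE, edgeR adjusted p = 0.0133) and tpMSC (-0.44 ± 0.13, edgeR adjusted p = 0.045). Of the 4 protease-activated receptors, which sense thrombin and related proteases, F2rl1 alone was called in ALI (log2 -0.32 ± 0.09 SE, edgeR adjusted p = 0.017).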

How the data were processed

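Expression was measured by RNA sequencing of 12 mouse lung libraries. The authors deposited 1 table that lists, per the file headers, counts of reads and FPKM for each gene in each library. GRCm38, StringTie 1.3.4d, HISAT2 2.0.4 and cutadapt 1.9, beside edgeR and DESeq2, appear in the submitters' processing notes without their roles. Which tool counted reads, and whether by strand, is not given in the sources used here. Deposited positions differ from GRCm38 for all 9 genes, so positions are those of GENCODE M21, matched by Ensembl ID.

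Groups came from the sample titles. Counts (53083002 to 70209229 per library) entered edgeR 4.0.16 under R 4.3.3: filterByExpr left 22915 genes, TMM set the scale, and the quasi-likelihood model held the 4 group means with p-values adjusted over all 22915 (Benjamini-Hochberg). Each SE is the size of the log2 change divided by the square root of F. The procedure was tested on simulated counts with known changes.

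Named genes are the 9, the 4 called genes of smallest p per comparison from the 47 others, members of counts of 5 or fewer, and 2 genes of most similar pattern each. A gene that this rule names is not reported here. In addition, Fga, Fgg, Pf4, Cd14, Chil3, Alb, Serpina1a, Ttr, Sftpc, Inmt and Ager were named after their values were seen. The genes and lists were chosen with earlier results of these data known. Alternatives were DESeq2 1.42.0, its size factors, no count filter, a replicate block, the compared groups alone and leaving out each library.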

Additional observations from a re-analysis of the deposited data

How the results depend on the processing

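With the 9 genes, counts of calls held within 1.5 times for ALI against Control, tpMSC against ALI and MSC against Control in every alternative that kept all libraries. For MSC against ALI the count of 4 became 2 without the filter on low counts and 2 with those groups alone. For tpMSC against Control the count of 2 became 1 without the filter and 5 with those groups alone. For tpMSC against MSC it was 1 with DESeq2. Leaving out 1 library at a time, the counts ran from 5 to 7 for ALI against Control, 1 to 6 for MSC and 3 to 6 for tpMSC against ALI, 0 to 1 for tpMSC against MSC, and 2 to 4 for MSC and 0 to 4 for tpMSC against Control. Over all genes, MSC against ALI gave 2347 calls, 3605 with DESeq2, 1170 with those groups alone (389 up and 781 down, against 1153 and 1194) and 1096 to 2980 with a library left out. tpMSC against MSC gave 7 calls, 671 with DESeq2 (222 up and 449 down, against 4 and 3), 4 with DESeq2 size factors, 0 each without the filter, with the replicate block and with those groups alone, and 0 to 397 with a library left out. The leave-one-out ranges were 3440 to 5835 for tpMSC against ALI, 2470 to 4778 for MSC against Control and 1850 to 4343 for tpMSC against Control. Filtering fewer genes and fitting fewer libraries change the number of tests and the residual degrees of freedom; other causes were not tested.

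Values near 0 changed sign. Tfpi in ALI against Control was 0.00498 with DESeq2, 0.00474 with its size factors and 0.00303 with those groups alone, and -0.0255 to 0.0349 with a library left out. Without the filter Procr in MSC against ALI was 0.0023 and Thbd in tpMSC against Control 0.00068. With a library left out, Procr ran from -0.13 to 0.13 in MSC and -0.00887 to 0.24 in tpMSC against ALI. For tpMSC against MSC the ranges were -0.0247 to 0.21 for Procr, -0.00947 to 0.10 for Tfpi, -0.12 to 0.36 for Plat, -0.32 to 0.0667 for Plau and -0.15 to 0.56 for Plaur. For tpMSC against Control they were -0.13 to 0.0736 for Thbd, -0.0894 to 0.19 for F3, -0.0482 to 0.34 for Plau and -0.17 to 0.0152 for Vwf. With the replicate block F3 in MSC against ALI was -0.47 with an adjusted p of 0.052 and lost its call, so that 3 of the 9 were called; the block changed no other call of the 9. Correlations of group-centred log2 CPM between libraries of equal number ran from -0.11 to 0.10 over 18 pairs, and 4 of 12 libraries had their highest correlation with their own number, so the numbers were not treated as pairs. The block left 2102 calls over all genes for MSC against ALI and 8869 for ALI against Control.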
